A study of Homo sapiens with 3 samples.

Results

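The loci of 5 prostate marker genes were examined in LNCaP through regions called by ChIP-seq for 2 histone marks. LNCaP is an established prostate cancer line that came from a lymph node metastasis and grows in response to androgen. The loci were fixed windows of hg19: SLC45A3 with its neighbour ELK4 at chr1:205550001-205700000, TRPM8 at chr2:234780001-234960000, ACP3 (formerly ACPP) at chr3:132000001-132110000, PMEPA1 at chr20:56170001-56350000 and ABCC4 at chr13:95620001-96000000. Together they span 1000 kb. Every region overlapping a window was taken, which gave 55 H3K27ac and 148 H3K4me1 regions, 203 of the 271889 nuclear regions in both lists. The windows were set by position, not by region width, count or score, but with earlier results of these data known. All 3 samples of the series, the H3K27ac ChIP, the H3K4me1 ChIP and an input without antibody, come from LNCaP grown without any treatment that the labels name. Only the 2 ChIP samples were analysed here, and the normal and PC3 cells named in the series design were not analysed here. Each mark has 1 library and no replicate, so every value describes 1 list of regions and no p-value was computed.

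SLC45A3 encodes prostein, a membrane transporter family protein used as a prostate marker and known as a fusion partner of ETS genes in prostate cancer. ELK4 encodes an ETS transcription factor, and a read-through transcript that joins SLC45A3 to ELK4 is known in prostate cells. TRPM8 encodes a cold-activated cation channel, ACP3 encodes prostatic acid phosphatase, PMEPA1 encodes a membrane protein that dampens TGF-beta signalling, and ABCC4 encodes MRP4, an efflux pump for cyclic nucleotides and drugs. SLC45A3, TRPM8, ACP3, PMEPA1 and ABCC4 are known as genes that respond to androgen or are abundant in luminal prostate cells. H3K27ac, an acetylated lysine of histone H3, marks enhancers and promoters in use, and H3K4me1, a monomethylated lysine of the same histone, marks enhancers in use and enhancers held ready. RNA was not measured in the files used here, so the regions say nothing directly about how strongly these genes were expressed.

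The start-site sequences of the genes ranged widely in CG content, from 1 to 47 CG dinucleotides. RefSeq promoter sequences of GRCh38.p14, each 300 bases from 250 before to 50 after a start, were matched for all 6 genes, with 14 starts in all. They are shown for 2 genes whose single start lay above the median of 14 CG dinucleotides over all promoters, and for 2 genes with a start below it, in lower case with CG dinucleotides in capitals. Their GRCh38.p14 positions are chr1:205680460-205680759 on the minus strand for SLC45A3, chr13:95301402-95301701 on the minus strand for ABCC4, chr3:132317157-132317456 on the plus strand for ACP3 and chr2:233917123-233917422 on the plus strand for the first of 6 TRPM8 starts. These positions belong to another build than the regions, so no start was placed on a region, and hg19 positions below must not be compared with them.
SLC45A3: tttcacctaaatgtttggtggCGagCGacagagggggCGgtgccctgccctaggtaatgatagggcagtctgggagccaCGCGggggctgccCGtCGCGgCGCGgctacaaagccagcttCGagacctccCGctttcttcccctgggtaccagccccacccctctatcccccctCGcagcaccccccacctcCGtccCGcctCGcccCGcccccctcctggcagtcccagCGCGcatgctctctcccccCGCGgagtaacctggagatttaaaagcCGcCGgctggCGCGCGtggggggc
ABCC4: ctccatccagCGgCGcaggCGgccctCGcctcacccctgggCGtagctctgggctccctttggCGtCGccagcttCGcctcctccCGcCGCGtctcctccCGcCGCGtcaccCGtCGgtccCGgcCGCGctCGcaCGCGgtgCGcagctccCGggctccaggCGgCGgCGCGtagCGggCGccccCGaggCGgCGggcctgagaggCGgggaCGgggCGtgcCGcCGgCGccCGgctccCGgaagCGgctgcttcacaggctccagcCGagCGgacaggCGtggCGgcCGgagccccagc
ACP3: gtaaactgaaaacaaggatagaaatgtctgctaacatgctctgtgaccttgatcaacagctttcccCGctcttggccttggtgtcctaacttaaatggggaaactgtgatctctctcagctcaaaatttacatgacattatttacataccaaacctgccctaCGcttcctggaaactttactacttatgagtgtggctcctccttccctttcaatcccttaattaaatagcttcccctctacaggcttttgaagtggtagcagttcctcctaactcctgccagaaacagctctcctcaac
TRPM8: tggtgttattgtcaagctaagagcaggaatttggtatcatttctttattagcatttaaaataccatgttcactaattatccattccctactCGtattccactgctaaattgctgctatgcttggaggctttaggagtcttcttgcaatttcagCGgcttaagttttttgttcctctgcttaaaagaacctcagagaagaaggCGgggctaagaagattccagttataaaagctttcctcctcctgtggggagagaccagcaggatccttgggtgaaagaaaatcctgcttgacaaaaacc
The ABCC4 start held 47 CG dinucleotides and the SLC45A3 start 26, against 2 at ACP3 and 3 at the first TRPM8 start. Among the 35116 promoters of the table, 2.41% held at least as many as ABCC4, 30.1% as many as SLC45A3, 89.0% as many as ACP3 and 81.8% as many as TRPM8. The ELK4 start held 32, and the 4 PMEPA1 starts held 6, 18, 41 and 11. The 5 other TRPM8 starts held 1 to 5.

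Both strands of the same sequences were searched for 4 short motifs, and no matches of different motifs shared bases. AGAACA, the half-site bound by the androgen receptor, was present in 3 of the 14 starts, at TRPM8 and PMEPA1, and in 14.8% of all promoters. CCGGAAG, a core of ETS sites, was present in 4 of the 14 starts, at ELK4, ABCC4 and 2 PMEPA1 starts, and in 10.3% of all promoters. TATAAA was present in 1 start, the TRPM8 sequence printed above, and in 11.5% of all promoters. TGTTTAC, a forkhead motif, was present in 0 of the 14 starts and in 3.42% of all promoters. A match describes the letters only, and a missing match says only that these letters are not in these 300 bases.

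The 5 loci differed in how much of each mark they carried. SLC45A3 with ELK4 was the densest locus for both marks, where H3K27ac covered 50.65 kb and H3K4me1 93.7 kb of 150 kb. ABCC4 held the most H3K27ac in length, 68.35 kb, beside 82.6 kb of H3K4me1, but spread over 380 kb. PMEPA1 held 86.5 kb of H3K4me1 and only 19.1 kb of H3K27ac in 180 kb. In TRPM8, with a window of the same length, H3K27ac covered 12.1 kb and H3K4me1 27.3 kb. In ACP3 the marks covered nearly equal lengths of the 110 kb, 17 kb for H3K27ac and 16.4 kb for H3K4me1.

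**Figure D1:**
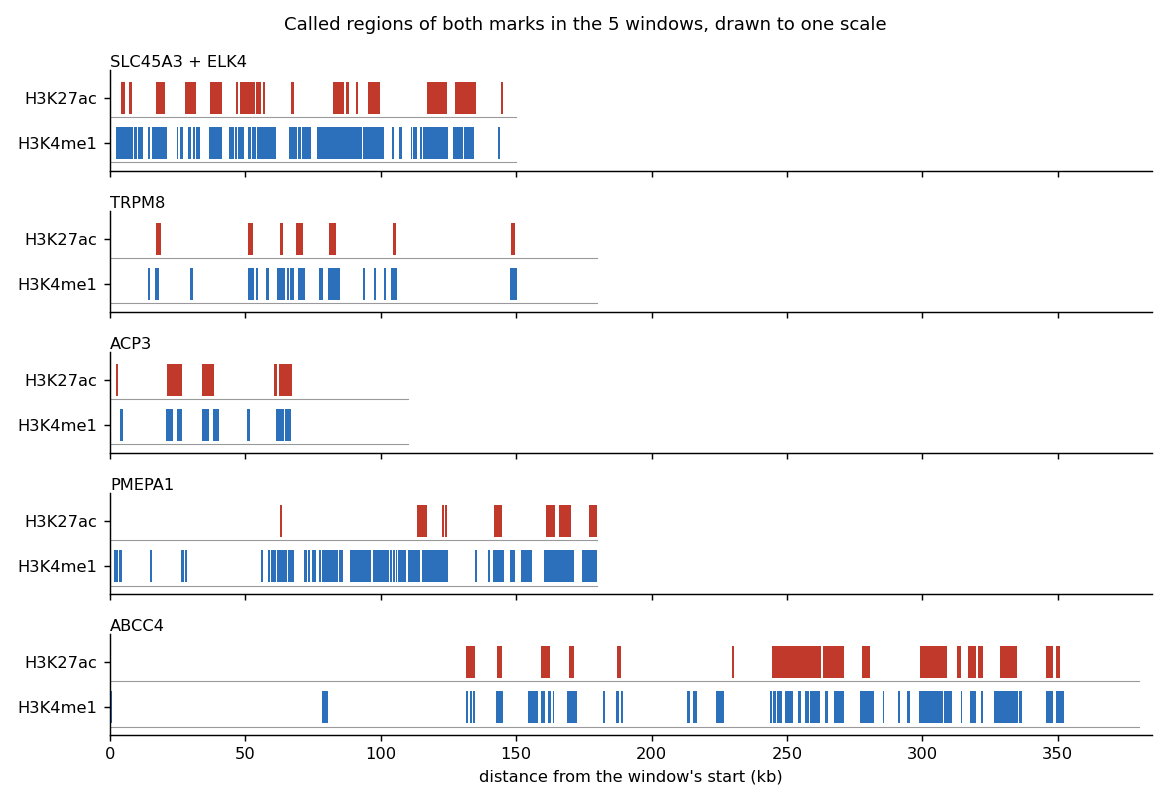
Called regions in the 5 windows, drawn to 1 scale. The horizontal axis is the distance from the window's start in kb, red bars are H3K27ac regions, blue bars are H3K4me1 regions and grey lines mark the window's extent. H3K4me1 runs without H3K27ac through the middle of PMEPA1, and the widest H3K27ac regions of ABCC4 lie above several narrower H3K4me1 regions.

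As density of covered length, H3K27ac reached 338 kb per Mb at SLC45A3, 180 at ABCC4, 155 at ACP3, 106 at PMEPA1 and 67.2 at TRPM8, against 46.5 over all chromosomes. All 5 loci thus lay above the genome-wide density, by 7.26-fold at SLC45A3 and by 1.45-fold at TRPM8. H3K4me1 density was 625 kb per Mb at SLC45A3, 481 at PMEPA1, 217 at ABCC4, 152 at TRPM8 and 149 at ACP3, against 94.5 over all chromosomes. TRPM8 and ACP3 differed too little in H3K4me1 to be ordered, and they exchanged places in 4 of the 5 alternatives that could change the order. LNCaP has an abnormal karyotype, and the part of copy number in these densities was not tested.

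The same lengths were read against every window of equal size laid end to end over the chromosomes, among those holding at least 1 region of either mark. For SLC45A3, 0.559% of the 17900 windows of 150 kb held at least as much H3K27ac and 0.134% at least as much H3K4me1. For PMEPA1, 14.7% of the 15108 windows of 180 kb held at least as much H3K27ac but only 0.887% as much H3K4me1. For ABCC4, 2.58% of the 7430 windows of 380 kb reached its H3K27ac length and 12.9% its H3K4me1 length. For ACP3, 8.08% of 23682 windows reached its H3K27ac length and 27.5% its H3K4me1 length. For TRPM8, the figures were 28.1% and 25.9% of 15108 windows, so windows with as much of either mark as TRPM8 were common. PMEPA1 therefore stood further out for H3K4me1, and ABCC4 and ACP3 for H3K27ac.

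ABCC4 stood furthest above its own chromosome. Densities on chromosome 13 were 22.1 kb per Mb for H3K27ac and 34.5 kb per Mb for H3K4me1, and the ABCC4 window exceeded these by 8.15-fold and 6.29-fold. Chromosome length was counted from the first base to the end of the last region. Stretches where no region can be called were not taken out, and their part in the folds was not tested. SLC45A3 exceeded chromosome 1 by 5.25-fold and 4.31-fold, and PMEPA1 exceeded chromosome 20 by 2.05-fold for H3K27ac and 3.59-fold for H3K4me1. For ACP3 on chromosome 3 the folds were 3.16 and 1.59. TRPM8 stood nearest to its chromosome for H3K27ac, with 67.2 kb per Mb against 44.9 on chromosome 2, and exceeded it by 1.72-fold for H3K4me1, for which ACP3 stood nearest.

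Flanks of the same length as each window showed how local the enrichment was. At ABCC4 the flank at lower coordinates held 2.5 kb of H3K27ac, of which the window held 27.3-fold more, and the flank at higher coordinates, towards CLDN10, held 18.75 kb. At PMEPA1 the flank at higher coordinates held no H3K27ac region and 19.35 kb of H3K4me1, and the flank at lower coordinates held 5.85 and 35.2 kb. At SLC45A3 the flank at lower coordinates held 80.25 kb of H3K4me1, close to the 93.7 kb of the window, but only 13.05 kb of H3K27ac against 50.65 kb. The window thus held 3.88-fold the H3K27ac length of this flank and 1.17-fold its H3K4me1 length. In the flank at higher coordinates H3K27ac covered 18.35 kb and H3K4me1 45.8 kb, which the window exceeded by 2.76-fold and 2.05-fold.

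ACP3 and TRPM8 were not set apart from their flanks at lower coordinates. In the ACP3 flank there, on the side of CPNE4, H3K27ac covered 19.3 kb and H3K4me1 24.5 kb, more of each mark than in the window. The TRPM8 flank there held 11.85 and 29.55 kb, against 12.1 and 27.3 kb in the window. At higher coordinates both flanks were sparser than the windows, by 1.79-fold for H3K27ac at ACP3 and by 2.81-fold at TRPM8. Neighbouring genes are named from the order of protein-coding genes in the RefSeq table of GRCh38.p14.

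**Figure D2:**
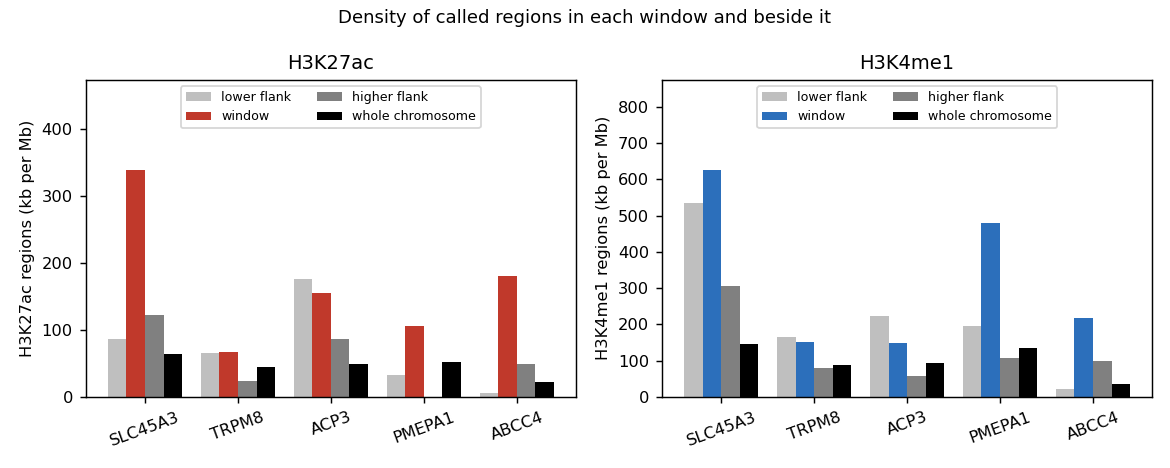
Density of called regions in each window and around it. Bars give kb of regions per Mb for H3K27ac (left) and H3K4me1 (right) in the flank at lower coordinates, the window, the flank at higher coordinates and the whole chromosome. There is 1 library per mark and so no error bar, and the ACP3 window is the only one below its lower flank in both panels.

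The share of H3K27ac length that also lay in H3K4me1 regions ranged widely between the loci. It was 96.9% at PMEPA1, 86.6% at SLC45A3, 83.1% at TRPM8, 76.3% at ABCC4 and 65.6% at ACP3, against 71.5% of all H3K27ac length. Whole chromosomes differed as well, with 82.7% on chromosome 20 of PMEPA1 and 77.7% on chromosome 1 of SLC45A3. The share was 67.4% on chromosome 2 of TRPM8, 55.0% on chromosome 13 of ABCC4 and 68.1% on chromosome 3 of ACP3. The reverse share, H3K4me1 length inside H3K27ac regions, took nearly the opposite order. It was 68.0% at ACP3, 63.1% at ABCC4, 46.8% at SLC45A3, 36.8% at TRPM8 and 21.4% at PMEPA1, against 35.1% of all H3K4me1 length. The order of the loci by either share was the same in each of the 5 alternatives that could change it. The 2 shares are not separate measures, since both rest on the same shared length.

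The balance of the marks summarises this contrast. H3K27ac length divided by H3K4me1 length was 1.04 at ACP3, 0.827 at ABCC4, 0.541 at SLC45A3, 0.443 at TRPM8 and 0.221 at PMEPA1, against 0.492 over all chromosomes. The loci's own chromosomes differed in the same ratio. It was 0.522 on chromosome 3, 0.639 on chromosome 13, 0.444 on chromosome 1, 0.507 on chromosome 2 and 0.386 on chromosome 20. ABCC4, PMEPA1 and ACP3 thus lay on chromosomes shifted the same way as they were, with chromosome 3 of ACP3 shifted the least of these. SLC45A3 and TRPM8 lay on chromosomes shifted the other way. Among windows of the same size with both marks, 14.3% had a ratio at least as high as ACP3 and 17.7% one as high as ABCC4. For SLC45A3 the share was 45.7% and for TRPM8 58.1%, so the balance at these loci lay near the middle of the windows. For PMEPA1 it was 86.2%, so its ratio was lower than in most windows.

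**Figure D3:**
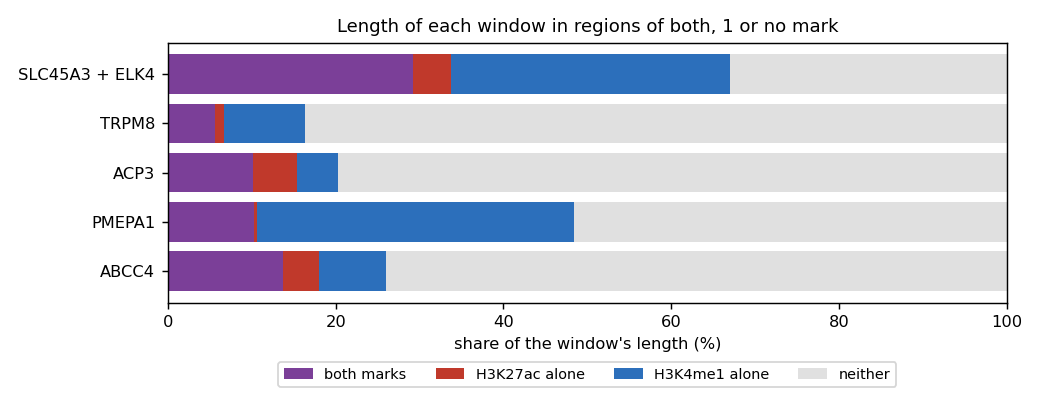
Share of each window's length in regions of both marks, H3K27ac alone, H3K4me1 alone or neither. The horizontal axis is percent of the window, and the bars add up to 100%. H3K4me1 alone covers 37.8% of the PMEPA1 window and 33.2% of the SLC45A3 window, but 4.77% of the ACP3 window.

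Nearly all H3K27ac regions of the 5 loci met H3K4me1 by at least 1 bp. Of the 55 regions, 52 did (94.5%, exact Clopper-Pearson 95% interval 84.9% to 98.9%), against 83.1% of all 71077 H3K27ac regions. All 7 regions of TRPM8 and all 8 of PMEPA1 met H3K4me1, as did 17 of 18 at SLC45A3, 16 of 17 at ABCC4 and 4 of 5 at ACP3. The regions at these loci were also wider than usual, with a median of 2350 bp against 1600 bp over the list, and width and overlap went together. All 29 regions of 2 kb or more met H3K4me1, against 95.6% of such regions in the list, and 23 of the 26 narrower ones did, against 75.9%. The intervals cover counting error only, since neighbouring regions of 1 library are not independent. The 3 H3K27ac regions without H3K4me1 were narrow. They were 900 bp at chr1:205694351-205695250, which ended the SLC45A3 window 250 bp from the nearest H3K4me1 region, 700 bp at chr3:132002151-132002850 in the ACP3 window, and 900 bp at chr13:95849651-95850550 in the ABCC4 window.

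H3K4me1 regions met H3K27ac much less evenly. Over the 5 loci 73 of 148 did (49.3%, interval 41.0% to 57.7%), against 34.5% of all 200812 regions. Width and overlap went together for this mark too. In the list 77.2% of H3K4me1 regions of 2 kb or more met H3K27ac, against 24.8% of narrower ones. At these loci the median width was 1300 bp against 1050 bp over the list, and the part of width in the higher share was not tested. The count was 33 of 48 at ABCC4 (68.8%, interval 53.7% to 81.3%), 6 of 8 at ACP3 (75.0%, 34.9% to 96.8%), 19 of 36 at SLC45A3 (52.8%, 35.5% to 69.6%) and 8 of 19 at TRPM8 (42.1%, 20.3% to 66.5%). At PMEPA1 only 7 of 37 did (18.9%, 7.96% to 35.2%), the lowest share of the 5 loci. ACP3 and TRPM8 had the fewest regions, 8 and 19, and the widest intervals. Neighbouring regions are not independent, so these intervals cover counting error only and cannot decide whether the loci differ.

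The regions were nested in opposite ways. At PMEPA1 7 of 8 H3K27ac regions lay wholly inside H3K4me1, and at SLC45A3 11 of 18 did, against 33.1% of all H3K27ac regions. At ABCC4 2 of 17 did, at TRPM8 3 of 7 and at ACP3 0 of 5. Conversely, 14 of the 48 H3K4me1 regions of ABCC4 lay wholly inside H3K27ac, against 6.88% of all H3K4me1 regions. At SLC45A3 6 of 36 did and at ACP3 1 of 8, and at TRPM8 and PMEPA1 none of 19 and 37 did. At PMEPA1 H3K27ac thus formed islands within broader H3K4me1, while at ABCC4 some H3K4me1 regions, up to 5500 bp wide, lay within broader H3K27ac.

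**Figure D4:**
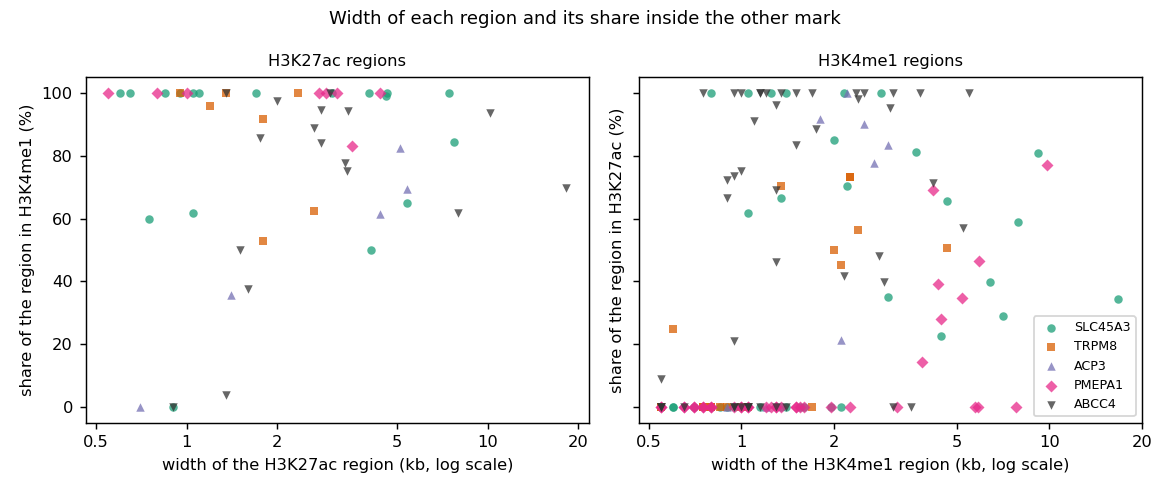
Width of each region on a log axis in kb against the share of it inside the other mark in percent, for 55 H3K27ac regions (left) and 148 H3K4me1 regions (right). Each point is 1 region, with symbol and colour giving the locus. Most PMEPA1 points sit at 100% on the left and at 0% on the right.

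At SLC45A3 and ELK4 the marks ran through most of the window, and only 33% of it lay in neither. The widest H3K27ac regions were 7750 bp at chr1:205677401-205685150, 7450 bp at chr1:205666901-205674350 and 5400 bp at chr1:205598101-205603500. The second of these carried both marks over its whole 7.45 kb, the longest doubly marked stretch of the window. The widest H3K4me1 region of all 5 loci, 16700 bp at chr1:205626301-205643000, held 3 H3K27ac regions that covered 34.4% of it. It was followed by H3K4me1 regions of 7900 bp at chr1:205643401-205651300 and 9200 bp at chr1:205665701-205674900. From chr1:205649851 to 205666900, 17.05 kb without H3K27ac held 7 H3K4me1 regions or parts of them. Of the 14 H3K4me1 regions of 2 kb or more, 1 lay without H3K27ac, 2100 bp at chr1:205560201-205562300. In the list 77.2% of such regions met H3K27ac.

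The score of the authors, a value per region that has no name in the files, was at the list's lowest value, 0.001, in 4 of the 18 H3K27ac regions of this window. Of these, the region at chr1:205666901-205674350 was the widest. At ABCC4 4 of 17 regions had this score, at ACP3 2 of 5, and at TRPM8 and PMEPA1 1 each. The 12 regions with this score were 21.8% of the 55, against 14.3% of the list. Among H3K4me1 regions a score of 0.003 was the lowest seen at these loci, and 58 of 148 (39.2%) had it, against 27.8% of the list.

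TRPM8 carried 7 H3K27ac regions, 950 to 2650 bp wide with a median of 1800 bp, and separated by a median of 15700 bp. The widest, 2650 bp at chr2:234848601-234851250, had the lowest score of the window and was 62.3% inside H3K4me1. The next, 2350 bp at chr2:234861001-234863350, lay wholly within the widest H3K4me1 region of the locus, 4650 bp at chr2:234860401-234865050, and was the longest stretch with both marks. The next in width were 2 regions of 1800 bp, of which the one at chr2:234797151-234798950 was 52.8% inside H3K4me1. The other wide H3K4me1 regions were 2400 bp at chr2:234927901-234930300 and 2250 bp at chr2:234831051-234833300. Between chr2:234885851 and 234927900, 42.05 kb held neither mark. No region of 1 mark alone reached 2 kb at this locus.

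ACP3 carried 5 H3K27ac regions, of which 3 made up 87.6% of the length. These were 5400 bp at chr3:132021151-132026550, 5100 bp at chr3:132062301-132067400 and 4400 bp at chr3:132034151-132038550. In the first, H3K4me1 covered both edges but not the midpoint, through 1 region of 2700 bp at chr3:132020551-132023250 and another at chr3:132024901-132026700. The third showed a similar break, between H3K4me1 regions at chr3:132033901-132036400 and chr3:132038101-132040200, with 1.7 kb of H3K27ac alone, although its midpoint was just covered. Only the first therefore counts among the 4 of 29 H3K27ac regions of 2 kb or more at the 5 loci with covered edges and a free midpoint, against 6.80% of all such regions. The other 3 lay at SLC45A3, PMEPA1 and ABCC4, 1 at each. The second ACP3 region met the widest H3K4me1 region of the locus, 3000 bp at chr3:132061301-132064300. From chr3:132067401 to the window's end at 132110000, 42.6 kb held neither mark.

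PMEPA1 held a stretch with sparse H3K4me1 and no H3K27ac, a stretch with dense H3K4me1 and no H3K27ac, and a stretch with both. The longest stretch without H3K27ac was 62.85 kb at chr20:56170001-56232850, where 10 H3K4me1 regions or parts of them covered 10350 bp. This stretch began at the window's edge and is not among the gaps between H3K27ac regions compared below. Between H3K27ac regions at chr20:56232851-56233400 and chr20:56283351-56286900, 49.95 kb without H3K27ac held 17 H3K4me1 regions or parts of them that covered 37.5 kb, or 75.1% of it. The longest gaps between H3K27ac regions at the other loci were covered by H3K4me1 over 40.8% at SLC45A3, 15.4% at ABCC4, 11.7% at ACP3 and 1.41% at TRPM8. PMEPA1 had 12 H3K4me1 regions of 2 kb or more, of which 5 were free of H3K27ac. In the list 77.2% of such regions met H3K27ac. The gap at PMEPA1 held 3 of the 5 free ones: 7800 bp at chr20:56258551-56266350, 5850 bp at chr20:56267151-56273000 and 5750 bp at chr20:56248451-56254200. All had the score 0.003, the lowest for H3K4me1 at these loci. The other two were 3200 bp at chr20:56322501-56325700 and 2250 bp at chr20:56167801-56170050, at the window's edge.

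Of the H3K27ac length at PMEPA1, 97.1% lay above the window's midpoint, against 67.6% of the H3K4me1 length. The widest H3K27ac regions were 4400 bp at chr20:56335851-56340250, 3550 bp at chr20:56283351-56286900 and 3150 bp at chr20:56331151-56334300. The first and the third shared 1 H3K4me1 region of 9800 bp at chr20:56330451-56340250, the widest of the locus. The second was the only H3K27ac region of PMEPA1 not wholly inside H3K4me1, with 0.6 kb of H3K27ac alone in its centre. The longest stretch of neither mark was 27.2 kb at chr20:56198601-56225800.

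ABCC4 had the widest H3K27ac region of the 5 loci, 18250 bp at chr13:95864451-95882700, with the score 0.001. It met 8 separate H3K4me1 regions, which covered 69.6% of it. Next to it lay a region of 8000 bp at chr13:95883251-95891250, 61.9% inside 2 H3K4me1 regions, with the longest stretch of H3K27ac alone at these loci, 2.1 kb at chr13:95885301-95887400. Another wide region, 10200 bp at chr13:95919101-95929300, was 93.6% inside 3 H3K4me1 regions. One of these, 5500 bp at chr13:95922251-95927750, was the widest H3K4me1 region of ABCC4 and lay wholly inside H3K27ac. The others by width were 5250 bp at chr13:95896901-95902150 and 4200 bp at chr13:95947351-95951550. Both marks were concentrated above the window's midpoint, with 82.4% of the H3K27ac and 74.2% of the H3K4me1 length.

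The part of the ABCC4 window at lower coordinates was nearly empty. No H3K27ac region lay in its first 131.35 kb, which held 2.9 kb of H3K4me1 in 3 regions or parts of them, and 77.4 kb from chr13:95620801 to 95698200 held neither mark. Of the 14 H3K4me1 regions of 2 kb or more in the whole window, those without H3K27ac were 3550 bp at chr13:95774351-95777900 and 3100 bp at chr13:95843701-95846800. In the list 77.2% of such regions met H3K27ac. The window was 74% free of both marks, against 51.6% at PMEPA1, 79.8% at ACP3 and 83.7% at TRPM8.

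Joining H3K27ac regions at most 12500 bp apart gave 37027 clusters over the chromosomes, ranked by the length the regions covered. ABCC4 held clusters of rank 274, with 29.25 kb in 3 regions at chr13:95864451-95900800, and rank 363, with 26.2 kb in 8 regions at chr13:95919101-95970800. SLC45A3 touched clusters of rank 208, with 33.2 kb in 15 regions, and rank 332, with 27.15 kb in 10 regions, both within the first 1% of the ranking. The first ran from 205511701 to 205618050 on chromosome 1, beyond the window on the side of ELK4 and SLC60A1, and the second ran on to 205740600, on the side of NUCKS1. Another SLC45A3 cluster of 4 regions at chr1:205632301-205649850 covered 10.4 kb, all of it inside H3K4me1, and ranked 2437. The highest ranks inside the other windows were 2487 at PMEPA1, with 10.3 kb in 3 regions, 2721 at ACP3, with 9.8 kb in 2 regions, and 3751 at TRPM8, with 8 kb in 4 regions. A further cluster of rank 783, with 18.9 kb in 9 regions, touched the ACP3 window but lay almost wholly beyond it, at chr3:131935151-132002850.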

How the data were processed

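The files hold called regions of 2 ChIP-seq libraries of LNCaP. Per the labels' protocols, crosslinked chromatin was sonicated to 200 to 600 bp and read as 50 bp single ends. Reads were handled with Bowtie 0.12.8 and hg19, per the submitters' processing notes. How regions were called, at which threshold and against which background is not given in the sources used here, and this sets the number and width of regions. The deposited score per region has no name. It lies between 0.001 and 0.048 in the H3K27ac list and between 0.001 and 0.093 in the H3K4me1 list, and only ranked or filtered regions within a list. The lists carry no read counts, so depth is unknown, and an unlisted stretch may still carry the mark.

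Starts were read as 0-based and printed from 1. The 1 mitochondrial region per list was left out. Regions were clipped to the windows for lengths and kept whole for counts and widths. Overlap meant at least 1 bp. The regions named are the 3 widest per mark and locus, that of lowest score, H3K27ac or H3K4me1 regions of 2 kb or more without the other mark, and the longest stretches of both or neither mark; others were chosen after their values were seen. No hg19 annotation was used, so no region was assigned to an exon, intron or start site, marker genes of LNCaP and other cell types were not placed, and no gene of like pattern was named. The members, windows and rules were chosen with earlier results of these data known. Interval code was tested on 3 simulated pairs of lists, with 0 bp in error. Python 3.11.15, numpy 2.4.6, scipy 1.17.1 and matplotlib 3.10.9 were used.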

Additional observations from a re-analysis of the deposited data

How the results depend on the processing

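Of 125 alternative values, 12 moved, by over 1.5-fold for lengths and densities or beyond the exact interval for shares of regions, and 113 did not. The count is no measure of closeness, since intervals were wide where regions were few. At ACP3 the share of H3K27ac regions meeting H3K4me1 was 80% with an interval of 28.4% to 99.5%. A fall to 60%, with at least 50% of the region overlapping, thus did not count as moved, while a rise to 100% did. With scores at or below the list median, a filter that kept the widest region of each mark at every locus, H3K27ac density at TRPM8 fell to 35.3 kb per Mb. All H3K27ac regions left at SLC45A3, ACP3 and ABCC4 then met H3K4me1 (100%). At each of these loci the filter took out the 1 region without H3K4me1, among others. The share of the whole list under this filter is not given here. Under the same filter the longest cluster touching the window covered 18.85 kb in place of 33.2 kb at SLC45A3 and 5 kb in place of 8 kb at TRPM8. At ACP3 it covered 9.8 kb in place of 18.9 kb, where the longer cluster lay almost wholly beyond the window. With a joining distance of 5 kb the longest clusters covered 15.2, 3.85 and 6.5 kb. Windows widened by 50 kb on each side lowered H3K27ac density at PMEPA1 to 68.2 kb per Mb and put ACP3 above ABCC4. When at least 50% of a region had to overlap, 5.41% of PMEPA1 H3K4me1 regions met H3K27ac, and the share of the whole list under this rule is not given here. Merging within 1 kb, leaving out regions of 1 kb or less, and H3K4me1 scores under 0.05 moved no value. No paired analysis was possible because there is a single library for each mark. With depth unknown, stretches without a region may hold signal below the threshold of the lists.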
